A study of Mus musculus with 23 samples.

Results

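The genes described here encode the interleukin 6 family and its STAT3 feedback loop: the ligands Il6, Lif and Osm, the receptor chains Il6ra, Il6st and Osmr, the transcription factor Stat3 and its inhibitor Socs3. They were named by symbol, with earlier results of these data known. Each was represented by the probe set (a group of short oligonucleotides for 1 transcript) with the highest mean over all arrays. Of the 8 genes, 7 were measured among 12106 genes named in the table analysed, with 13 probe sets in all. No probe set was matched to Osm, which is therefore not analysed here.

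Whole back skin from adult CD-1 females, outbred mice, was profiled on 23 Affymetrix arrays. The clipped and shaved back received the solvent DMSO, or 4 mg of AG825 in DMSO, 2 h before 10 kJ/m2 of ultraviolet light (UV, mostly UVB with some UVA) or a sham exposure. AG825 belongs to the tyrphostins and inhibits Erbb2, a receptor of the epidermal growth factor receptor family. There were 4 arrays of DMSO sham skin, 4 of DMSO skin 6 h after UV and 4 of DMSO skin 24 h after UV, and the AG825 groups held 4, 4 and 3. All sham skin was taken at 6 h, so no time-matched sham exists for 24 h, and the 6 h and 24 h comparisons of 1 drug group share their sham arrays. No skin without solvent was included in these groups. Whether a replicate is 1 animal or a pool is not said in the labels, and the p-values therefore reflect only how far these samples spread, which may be technical.

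Cytokines of this family signal through the shared chain gp130, which Il6st encodes. Il6 binds first to Il6ra, Osm to Osmr paired with gp130, and Lif to Lifr paired with gp130. Ligand binding activates JAK kinases, which phosphorylate STAT3, and STAT3 induces Socs3, whose product binds gp130 and blocks further signalling. In skin the pathway is known for roles in keratinocyte activation, wound repair and the acute response to injury.

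The 250 bases upstream of a RefSeq transcript start of Il6, Socs3 and Osmr are shown because these genes had the largest rises of the group after UV. They are RefSeq sequences of mouse build GRCm38.p6, written 5′ to 3′ on the strand of the gene. For Il6 the start used is the outer end of the annotated gene, while for Socs3 and Osmr the annotated gene reaches further upstream, so their windows lie within it. Capitals mark matches on either strand to 5 searched motifs: TTCNNNGAA and its stricter form TTCCNGGAA for STAT3, TGANTCA for AP-1, an NF-kB motif and TTGCNNAA for C/EBP.
Il6, chr5:30012864-30013113, plus strand: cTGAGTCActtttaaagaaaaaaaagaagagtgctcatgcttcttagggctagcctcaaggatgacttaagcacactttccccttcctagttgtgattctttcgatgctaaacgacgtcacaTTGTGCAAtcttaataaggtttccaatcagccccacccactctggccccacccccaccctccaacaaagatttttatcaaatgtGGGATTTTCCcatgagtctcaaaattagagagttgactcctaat
Socs3, chr11:117969367-117969616, minus strand: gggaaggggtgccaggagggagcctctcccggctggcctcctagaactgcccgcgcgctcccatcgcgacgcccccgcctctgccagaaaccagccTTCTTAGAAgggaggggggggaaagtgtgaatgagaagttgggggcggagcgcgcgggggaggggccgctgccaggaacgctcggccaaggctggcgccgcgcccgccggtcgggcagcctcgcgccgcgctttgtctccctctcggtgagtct
Osmr, chr15:6874314-6874563, minus strand: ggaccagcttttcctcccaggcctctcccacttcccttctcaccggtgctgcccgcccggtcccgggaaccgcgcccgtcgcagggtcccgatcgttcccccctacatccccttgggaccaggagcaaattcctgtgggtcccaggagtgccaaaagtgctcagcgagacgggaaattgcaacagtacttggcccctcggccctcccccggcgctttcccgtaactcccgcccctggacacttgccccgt
The Il6 window holds an AP-1 match from -249 to -243, a C/EBP match on the opposite strand from -128 to -121 and an NF-kB match from -44 to -35, counted from the start. The Socs3 window holds 1 match to TTCNNNGAA, from -154 to -146. The Osmr window holds none of these letters, nor do those of Stat3, Il6st and Il6ra, and that of Lif holds an AP-1 match from -228 to -222. Of 32851 promoters in the table, 7.02% hold TTCNNNGAA, 0.913% TTCCNGGAA, 6.75% TGANTCA, 0.356% the NF-kB motif and 9.56% TTGCNNAA in the same window. No match was tested for binding, and none is a site shown to be used here.

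UV raised 5 of the 7 genes in DMSO skin at both times, and Il6 by the most. After 6 h Il6, Il6st, Osmr, Stat3 and Socs3 passed and none fell, against 7.77% of all 19645 probe sets called higher and 10.7% called lower. After 24 h those 5 genes passed again and none fell, against 4.89% and 3.83%. In AG825 skin 4 genes rose after 6 h (Il6, Osmr, Stat3 and Socs3) and none fell, against 1.48% and 1.26%, and 3 rose after 24 h (Il6, Osmr and Socs3), against 3.35% and 1.49%. Irradiated and sham arrays did not overlap for 5, 4, 5 and 4 of the 7 genes in these comparisons, against 18.7%, 14%, 8.56% and 21.4% of all probe sets. The median log2 difference of the 7 genes was 0.94, 0.76, 0.60 and 0.65 in these 4 comparisons, beside 0.01, -0.03, 0.03 and -0.08 over all probe sets. A gene passed at an adjusted p under 0.05 in limma's moderated test on log2 values, adjusted over all probe sets by the Benjamini-Hochberg method. Where a log2 difference below is followed by ±, the value after it is its standard error from that model.

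Among the ligands, Il6, the founding cytokine of the family, was low in all sham skin and high in all irradiated skin. In DMSO sham skin its log2 values were 5.31, 4.80, 4.95 and 5.25 on replicates A, B, C and D. At 6 h after UV they were 8.63, 8.61, 8.90 and 8.85 on replicates C, E, F and G, a narrow band far above sham. At 24 h replicates A, B, C and E had 10.11, 8.15, 7.48 and 8.67, so the mean was close to that at 6 h while the spread was wide, with an SD of 1.12 (n = 4) against 0.15 (n = 4). The UV difference in DMSO skin was 3.67 ± 0.45 at 6 h (12.7-fold, limma adjusted p = 1.41e-05) and 3.52 ± 0.45 at 24 h (adjusted p = 3.43e-05).

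In AG825 skin the sham values of Il6 were 5.09, 4.97, 5.42 and 4.84 on replicates B, C, D and E. At 6 h after UV replicates A, B, D and E had 7.18, 7.95, 9.80 and 8.28, and at 24 h replicates A, B and C had 8.92, 8.33 and 7.91. No irradiated array overlapped a sham array in either drug group. The UV difference was 3.22 ± 0.45 at 6 h (9.34-fold, limma adjusted p = 0.000289) and 3.31 ± 0.49 at 24 h (adjusted p = 0.000417). By size of rise Il6 stood 10th and 15th of 19645 probe sets in DMSO skin at 6 h and 24 h, and 7th and 6th in AG825 skin. The Il6 probe set was called present on all 23 arrays by the dChip software, and by GCOS on 1 of 4 DMSO sham arrays and on all 4 AG825 sham arrays, whose mean level was the same.

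Lif, a cytokine that acts through Lifr and gp130, had positive differences that did not pass. Its mean log2 level was 7.17 ± 0.27 (SD, n = 4) in DMSO sham skin, 7.59 ± 0.11 (n = 4) at 6 h and 7.61 ± 0.32 (n = 4) at 24 h. AG825 skin had 7.02 ± 0.10 (n = 4) after sham, 7.62 ± 0.38 (n = 4) at 6 h and 7.45 ± 0.17 (n = 3) at 24 h. The UV differences were 0.42 ± 0.17 and 0.45 ± 0.17 in DMSO skin (limma adjusted p = 0.0915 and 0.119) and 0.60 ± 0.17 and 0.43 ± 0.18 in AG825 skin (adjusted p = 0.066 and 0.194). All irradiated arrays of AG825 skin lay above its sham arrays, while in DMSO skin the groups overlapped. With the dChip signal Lif passed in DMSO skin at both times, by 0.80 and 0.82. With the GCOS signal it passed there at 24 h, by 1.11 (limma adjusted p = 0.0394), and not at 6 h. Without AG825 6 h replicate B it passed in AG825 skin at 6 h, by 0.70 (adjusted p = 0.0476). It was called present on 2 of 4 sham arrays in each drug group, and a second Lif probe set was called absent on all arrays.

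**Figure D1:**
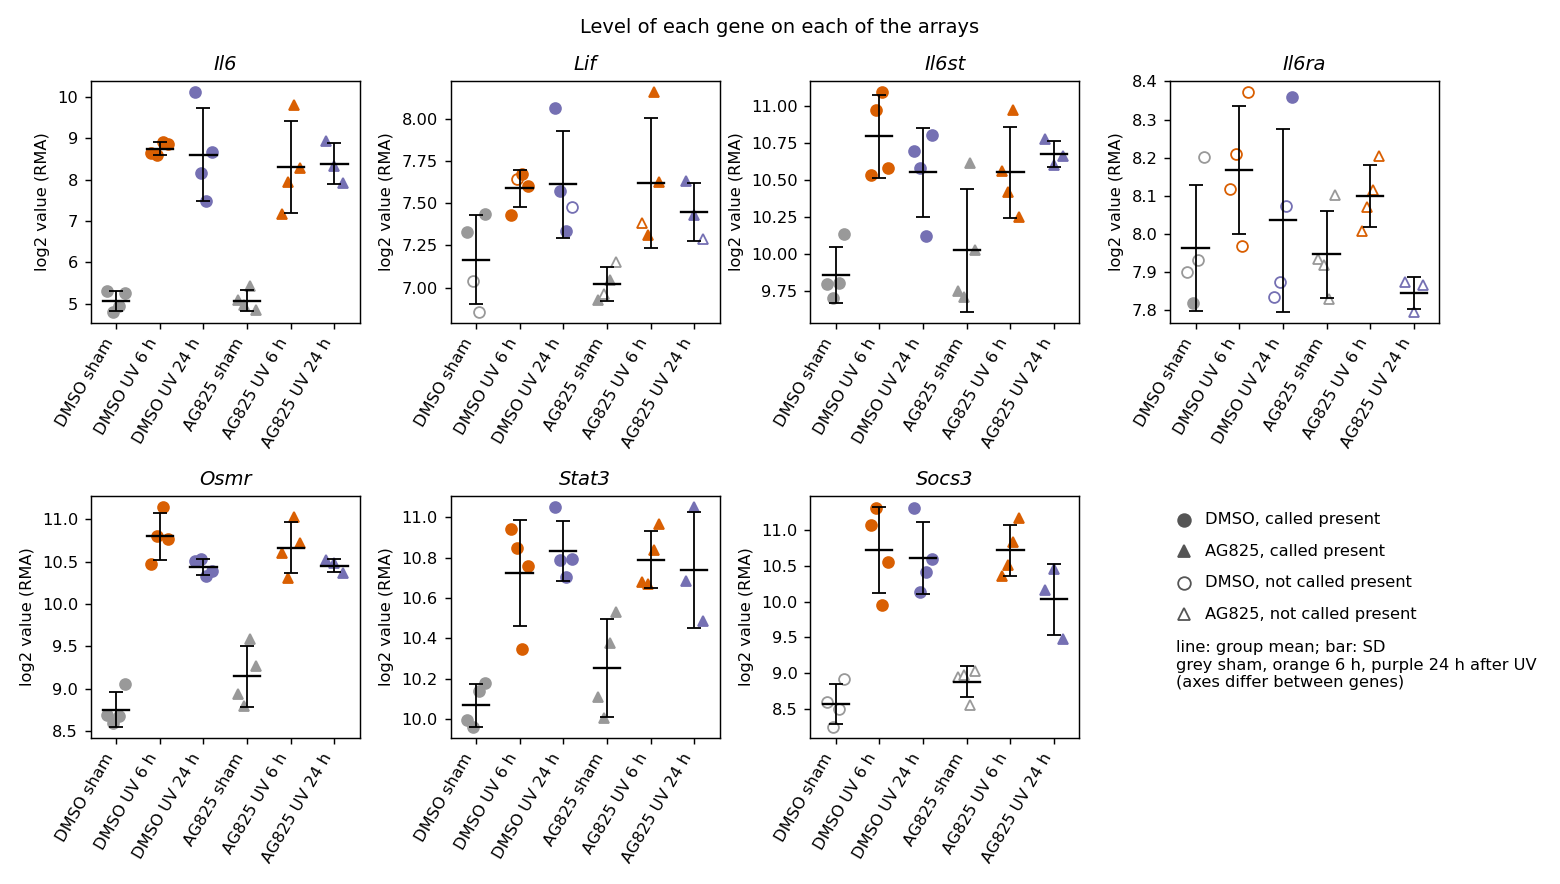
Log2 values (RMA) of the 7 measured genes on each of 23 arrays, with group means as lines and SD as bars; circles are DMSO skin, triangles AG825 skin, and open symbols were not called present by dChip. The irradiated arrays of Il6, Osmr and Socs3 lie above the sham arrays of the same drug group, and the irradiated and sham arrays of Il6ra overlap.

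Of the receptor chains, Osmr, which pairs with gp130 to bind oncostatin M, rose the most. Its values were 8.69, 8.60, 8.68 and 9.06 on DMSO sham replicates A, B, C and D, then 10.48, 10.81, 11.15 and 10.76 on 6 h replicates C, E, F and G, and 10.51, 10.53, 10.33 and 10.39 on 24 h replicates A, B, C and E. In AG825 skin they were 8.93, 8.80, 9.59 and 9.27 on sham replicates B, C, D and E, then 10.60, 10.30, 11.03 and 10.72 on 6 h replicates A, B, D and E, and 10.52, 10.48 and 10.36 on 24 h replicates A, B and C. Irradiated and sham arrays did not overlap in either drug group. The differences were 2.04 ± 0.17 at 6 h (4.12-fold, limma adjusted p = 1.34e-07) and 1.68 ± 0.17 at 24 h (adjusted p = 1.78e-06) in DMSO skin, and 1.52 ± 0.17 (adjusted p = 2.06e-05) and 1.31 ± 0.18 (adjusted p = 0.000225) in AG825 skin. A second Osmr probe set passed in DMSO skin, by 1.04 ± 0.27 and 0.88 ± 0.27, and did not pass in AG825 skin, where it differed by 0.60 ± 0.27 at 6 h and 0.14 ± 0.29 at 24 h.

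Il6st, the gp130 chain shared by the family, was clearly expressed without UV and rose less. Its values were 9.79, 9.70, 9.80 and 10.13 on DMSO sham replicates A, B, C and D and 10.53, 10.97, 11.09 and 10.58 on 6 h replicates C, E, F and G, with no overlap. At 24 h DMSO replicate C, with 10.12, fell within the sham range while replicates A, B and E had 10.70, 10.58 and 10.80. The differences in DMSO skin were 0.94 ± 0.19 at 6 h (1.91-fold, limma adjusted p = 0.00178) and 0.69 ± 0.19 at 24 h (adjusted p = 0.027). In AG825 skin Il6st differed by 0.53 ± 0.19 at 6 h (adjusted p = 0.173) and 0.65 ± 0.21 at 24 h (adjusted p = 0.078), and neither passed. AG825 sham replicate D, with 10.61, stood within the irradiated range, and without it the differences were 0.72 (adjusted p = 0.0338) and 0.85 (adjusted p = 0.00981). The 24 h call in DMSO skin was lost on leaving out any 1 of DMSO sham replicates A, B and C or 24 h replicates A, B and E, with 0.61 to 0.68 left. The 6 h call was lost without the 3 arrays of lowest percent present, with 0.70 (adjusted p = 0.0697). A second, dimmer Il6st probe set passed in no comparison (0.13 ± 0.32 at 6 h in DMSO skin).

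Il6ra, the chain that binds Il6 itself, had signal near background. Its brighter probe set was called present on 1 DMSO sham array and 1 DMSO 24 h array and on no other array by dChip, and on no array by GCOS, and its second probe set on 7 of 23 arrays by dChip. The group means of the brighter probe set ran from 7.84 ± 0.04 (SD, n = 3) in AG825 skin at 24 h to 8.17 ± 0.17 (n = 4) in DMSO skin at 6 h, and neither probe set passed in a comparison. The largest UV difference was 0.20 ± 0.11 (limma adjusted p = 0.223), in DMSO skin at 6 h, and with the dChip signal this passed, at 0.41 (adjusted p = 0.0454).

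Stat3, the transcription factor that the receptors activate, was expressed on every array and rose moderately. Its values were 10.00, 9.96, 10.14 and 10.18 on DMSO sham replicates A, B, C and D, then 10.94, 10.85, 10.35 and 10.76 on 6 h replicates C, E, F and G, and 11.05, 10.79, 10.70 and 10.79 on 24 h replicates A, B, C and E. No irradiated array overlapped sham in DMSO skin, and the differences were 0.66 ± 0.14 at 6 h (1.58-fold, limma adjusted p = 0.00251) and 0.76 ± 0.14 at 24 h (1.70-fold, adjusted p = 0.00129). In AG825 skin sham replicates B, C, D and E had 10.11, 10.00, 10.37 and 10.53, 6 h replicates A, B, D and E had 10.68, 10.67, 10.84 and 10.97, and 24 h replicates A, B and C had 10.68, 11.05 and 10.49. There the 6 h groups did not overlap, while the lowest 24 h array lay below the highest sham array. The difference of 0.53 ± 0.14 at 6 h passed narrowly (adjusted p = 0.0448) and that of 0.49 ± 0.15 at 24 h did not pass (adjusted p = 0.0717).

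The Stat3 call in AG825 skin at 6 h was lost on leaving out any 1 of AG825 sham replicates B, C and D or 6 h replicates A, B, D and E, with differences of 0.45 to 0.57 and adjusted p from 0.0527 to 0.157. It was also lost with the dChip signal (0.37, adjusted p = 0.276), the GCOS signal (0.81, adjusted p = 0.0617) and percent present as a covariate (0.59, adjusted p = 0.058). At 24 h Stat3 passed in AG825 skin without AG825 24 h replicate C (0.61, adjusted p = 0.0483). Of the other Stat3 probe sets, one passed in DMSO skin at 6 h (0.45 ± 0.13, limma adjusted p = 0.0192) and in no other UV comparison. The other had 0.84 ± 0.43 there and -0.24 ± 0.46 in AG825 skin at 24 h, and passed in none.

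Socs3, the feedback inhibitor that STAT3 induces, was not called present on any sham array of either drug group and was called present on every irradiated array. Its values were 8.60, 8.25, 8.50 and 8.92 on DMSO sham replicates A, B, C and D, then 11.07, 11.31, 9.95 and 10.55 on 6 h replicates C, E, F and G, and 11.31, 10.13, 10.42 and 10.60 on 24 h replicates A, B, C and E. In AG825 skin sham replicates B, C, D and E had 8.95, 8.98, 8.56 and 9.03, 6 h replicates A, B, D and E had 10.36, 10.52, 10.83 and 11.17, and 24 h replicates A, B and C had 10.17, 10.45 and 9.48. Every irradiated array lay above every sham array. Since sham signal was not above background, the rise is a bound: Socs3 was at least 4.45-fold higher at 6 h and at least 4.13-fold at 24 h in DMSO skin, and at least 3.58-fold and 2.23-fold in AG825 skin. These bounds set the irradiated mean against, per sham array, the higher of the gene's own value and the lowest value called present.

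The fitted differences of Socs3 were 2.15 ± 0.28 (limma adjusted p = 2.22e-05) and 2.04 ± 0.28 (adjusted p = 6.77e-05) in DMSO skin, and 1.84 ± 0.28 (adjusted p = 0.000565) and 1.15 ± 0.30 (adjusted p = 0.0289) in AG825 skin. The last call was lost on leaving out any 1 of AG825 sham replicates B, C and E or 24 h replicates A and B, with 0.94 to 1.20 left and adjusted p from 0.0544 to 0.142. Socs3 and Il6 each had 1 named probe set in the table analysed.

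**Figure D2:**
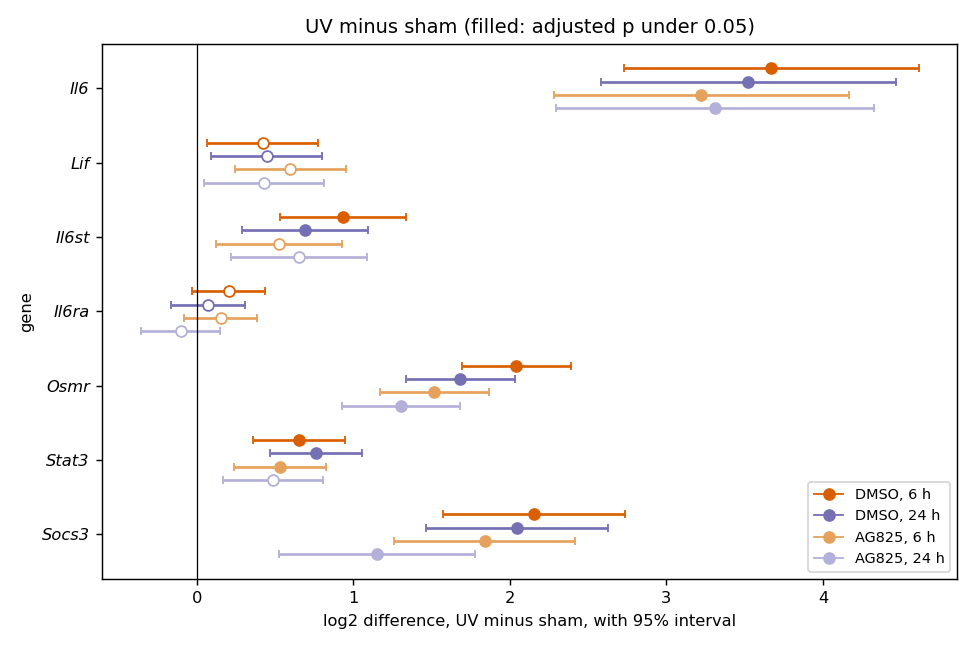
Log2 difference of irradiated minus sham skin for the 7 genes in DMSO skin and AG825 skin at 6 h and 24 h, with 95% intervals from the model; filled points have an adjusted p under 0.05. Il6 differs by 3.22 to 3.67 in the 4 comparisons and Il6ra by -0.10 to 0.20.

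Levels at 24 h and 6 h after UV were compared in each drug group, and no gene of the group passed. Of 7 genes, none passed in DMSO skin and none in AG825 skin by limma (1 and 2 at an unadjusted p under 0.05), nor with the dChip or GCOS signal, against 0.0458% and 0.229% of all probe sets. Socs3 in AG825 skin had the largest estimate, -0.68 ± 0.30 (limma adjusted p = 0.17), with an interval from -1.31 to -0.06. Il6ra in AG825 skin had -0.25 ± 0.12 (adjusted p = 0.196), with an interval from -0.51 to -0.00, and its 24 h arrays all lay below its 6 h arrays. Osmr in DMSO skin had -0.36 ± 0.17 (adjusted p = 0.349), with an interval from -0.71 to -0.01. Il6 had -0.15 ± 0.45 in DMSO skin and 0.08 ± 0.49 in AG825 skin. In the order of group means, Il6 stood at 8.75 in DMSO skin at 6 h, 8.60 at 24 h, then 8.39 in AG825 skin at 24 h and 8.30 at 6 h. Both sham groups stood at 5.08. The SD was 0.15 in DMSO skin at 6 h and 1.12 at 24 h, and in AG825 skin 1.10 at 6 h and 0.51 at 24 h. Differences between the 4 irradiated means were smaller than these SDs, except that of the narrow DMSO 6 h group.

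AG825 against DMSO compares levels with and without the drug in sham and irradiated skin. Erbb2 activity was not measured. No gene of the group passed in sham skin, at 6 h or at 24 h by limma (1, 0 and 0 at an unadjusted p under 0.05) or with the dChip or GCOS signal, and of all 19645 probe sets 0% passed in each of these comparisons. After sham, Osmr had the largest estimate, 0.39 ± 0.17 higher with AG825 (adjusted p = 1), with an interval from 0.04 to 0.74. At 6 h Il6 differed by -0.44 ± 0.45 (adjusted p = 0.921), with an interval from -1.38 to 0.50. Socs3 differed by -0.00 ± 0.28 at 6 h, with an interval from -0.58 to 0.58, and by -0.58 ± 0.30 at 24 h (adjusted p = 0.468), with an interval from -1.21 to 0.05. Osmr at 24 h differed by 0.01 ± 0.18, with an interval from -0.36 to 0.39.

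**Figure D3:**
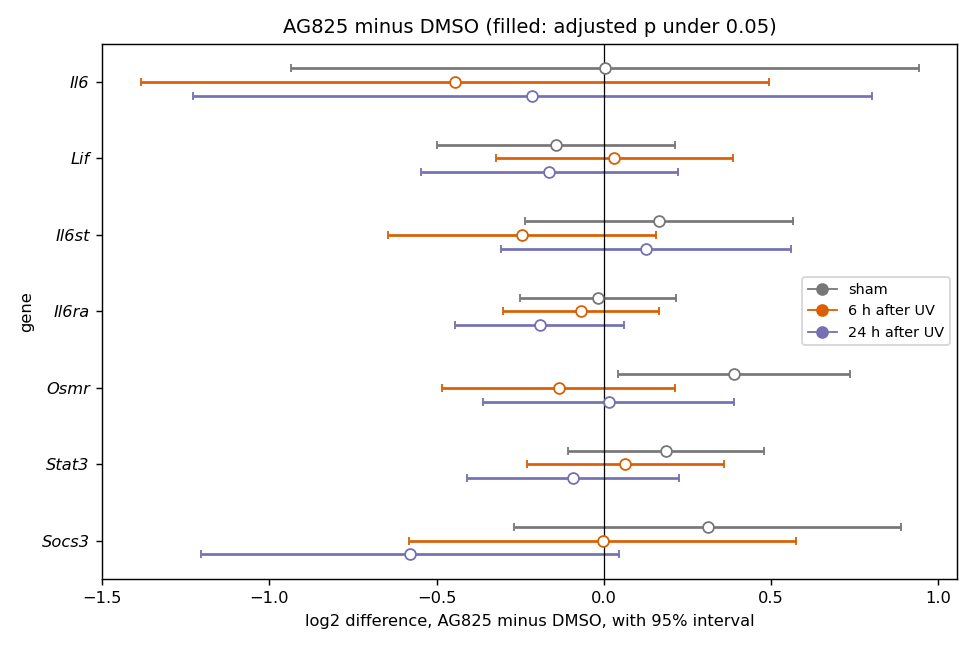
Log2 difference of AG825 minus DMSO skin for the 7 genes after sham and at 6 h and 24 h after UV, with 95% intervals from the model. No point is filled, since none passed; the widest interval is that of Il6 at 24 h, from -1.23 to 0.80.

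The interaction of drug and UV, which tests whether the rise itself differed between AG825 and DMSO skin, passed for none of the 7 genes at either time (1 at an unadjusted p under 0.05 at each time, and none adjusted with the dChip or GCOS signal). Over all probe sets, 0% passed at 6 h and 0.00509% at 24 h. The estimates were negative for 6 of 7 genes at 6 h and for all 7 at 24 h, and these genes share arrays. Osmr at 6 h had -0.52 ± 0.24 (limma adjusted p = 0.773), with an interval from -1.02 to -0.03, and Socs3 at 24 h had -0.89 ± 0.41 (adjusted p = 0.855), with an interval from -1.74 to -0.04. The genes that passed in DMSO skin and missed in AG825 skin, Il6st and at 24 h Stat3, were therefore not shown to respond differently.

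Across arrays the genes did not all vary together. After each group's mean was taken out, the Pearson r over the 23 arrays was 0.84 for Il6 and Lif, 0.80 for Il6st and Osmr and 0.73 for Stat3 and Socs3, while it was 0.30 for Il6 and Stat3 and -0.07 for Osmr and Socs3. AG825 6 h replicate D was the highest of its group for Il6 (9.80), Lif (8.16), Il6st (10.97) and Osmr (11.03), and DMSO 24 h replicate A was the highest of its group for Il6 (10.11), Lif (8.07), Stat3 (11.05) and Socs3 (11.31). DMSO 6 h replicate F was the lowest of its group for Stat3 (10.35) and Socs3 (9.95) and the highest for Il6st (11.09) and Osmr (11.15). These values share array and RNA sample, and are given as a description.

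**Figure D4:**
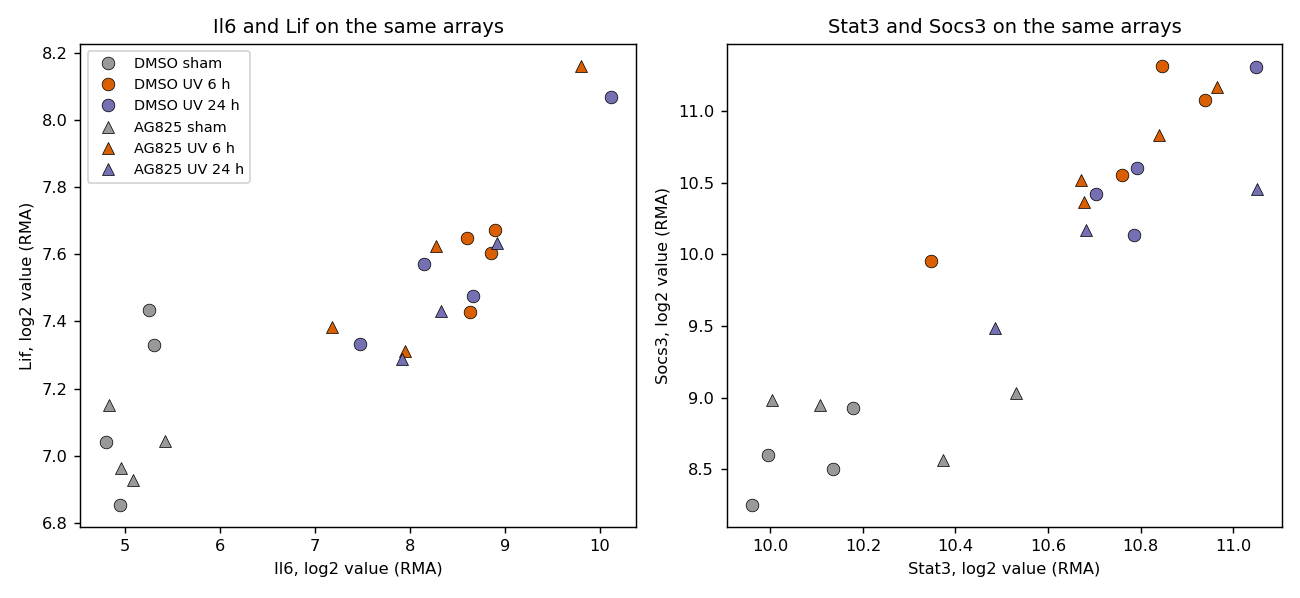
Log2 values (RMA) of Il6 against Lif and of Stat3 against Socs3 on the same 23 arrays; circles are DMSO skin, triangles AG825 skin, and colours mark sham (grey), 6 h (orange) and 24 h (purple). Within groups, r was 0.84 for the first pair and 0.73 for the second.

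Over all 23 arrays, group differences included, the genes with the most similar profile to Il6 were Ccl7, Ccr1 and Cxcl1, with Pearson r of 0.97, 0.97 and 0.96. For Osmr they were Icam1, Cebpd and Pde4b (r of 0.97 each), for Il6st Klf2, Litaf and Adm (0.97, 0.95 and 0.95), and for Socs3 Adam8, Cd14 and Ptx3 (0.96 each). Stat3 was most like Il4ra, Socs3 and Tnfaip2 (0.91 each), and Lif most like Il6, Adamts1 and Adamts4 (0.86 each). The nearest profiles to Il6ra, Nectin3, Tmem121b and Fcrla (0.91, 0.90 and 0.90), follow signal near background. These were the 3 highest values among one probe set for each of 12106 genes, and they carry no test.

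Other ligands and receptors of the family were measured in part. Of 8 other listed ligands 4 were measured, and 1 rose in DMSO skin at 6 h, where 7.77% of all probe sets were called higher. This was Ebi3, a subunit of interleukin 27, by 0.65 ± 0.16 (limma adjusted p = 0.00711), called present on 6 of 23 arrays. Il11, which signals through gp130 with a receptor of its own, differed by 0.26 there and was called present on 8 of 23 arrays, and no other listed ligand passed in a UV comparison. Of 5 other listed receptor chains 4 were measured, and Lifr, the Lif receptor, rose by 0.87 ± 0.24 in DMSO skin at 6 h (adjusted p = 0.0138). Its other UV differences did not pass, with 0.57 ± 0.24 in DMSO skin at 24 h and, in AG825 skin, -0.06 ± 0.24 at 6 h and 0.82 ± 0.26 at 24 h. The interaction estimates of Lifr, -0.93 at 6 h and 0.25 at 24 h, did not pass.

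Jak2, one of the kinases bound to gp130, rose in all 4 UV comparisons, by 0.89 ± 0.11 and 0.61 ± 0.11 in DMSO skin and 0.55 ± 0.11 and 0.65 ± 0.12 in AG825 skin (limma adjusted p from 1.5e-05 to 0.00729). It was one of 3 of 9 measured JAK kinases and other STATs that rose at 6 h in DMSO skin, with Stat2 (0.89 ± 0.15, called present on 6 of 23 arrays) and Stat5a (0.81 ± 0.15). Of all probe sets, 7.77% were called higher in that comparison. Stat4, which passed in the other 3 comparisons, by 0.41 to 0.47, was called present on 2 of 23 arrays. Jak1, the other main kinase of gp130, differed by 0.58 at 6 h in DMSO skin and passed nowhere.

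Among 15 other inhibitors of JAK-STAT signalling, 4 rose in DMSO skin at 6 h: Socs2, an inhibitor of growth hormone signalling, by 1.32 ± 0.24 (limma adjusted p = 0.000656), Ptpn6, a phosphatase of blood cells, by 0.61 ± 0.15, Cish by 0.37 ± 0.11 and Socs6 by 0.83. In DMSO skin at 24 h Ptpn6 alone rose, by 0.85 ± 0.15 (adjusted p = 0.000707 by limma). In AG825 skin at 6 h none of the 15 passed, and at 24 h Ptpn6 and Ptpn2 rose, by 0.98 ± 0.16 and 0.48 ± 0.12. Of all probe sets, 7.77% and 4.89% were called higher in DMSO skin at 6 h and 24 h, and 1.48% and 3.35% in AG825 skin. Ptpn6 was also higher at 24 h than at 6 h in AG825 skin, by 0.82 (limma adjusted p = 0.0401). Socs1, the closest relative of Socs3, was called present on 1 of 23 arrays and differed by 0.03 to 0.39 after UV without passing.

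Between 12 and 17 of 30 genes listed as STAT3 targets rose in each UV comparison. Of the 30, all measured, 17 rose and 2 fell in DMSO skin at 6 h, 16 rose at 24 h, and 12 and 16 rose in AG825 skin, where none fell, against 7.77%, 4.89%, 1.48% and 3.35% of all probe sets called higher. Their median log2 difference was 0.82, 0.83, 0.53 and 0.88 in these comparisons, beside 0.01, -0.03, 0.03 and -0.08 over all probe sets. Cebpd, a transcription factor of the acute-phase response, rose by 3.09 ± 0.20 and 2.44 ± 0.20 in DMSO skin and 2.80 ± 0.20 and 2.15 ± 0.22 in AG825 skin (limma adjusted p from 1.18e-08 to 8.8e-06). Bcl3, a nuclear partner of NF-kB, rose by 2.04 ± 0.20 and Icam1, a leukocyte adhesion molecule, by 1.86 ± 0.18 in DMSO skin at 6 h. Hp, which encodes the acute-phase protein haptoglobin, and Lrg1 rose by 1.89 ± 0.17 and 2.17 ± 0.22 in DMSO skin at 24 h. Fos, a subunit of AP-1, rose by 1.55 ± 0.21 in AG825 skin at 6 h, and Timp1, an inhibitor of matrix metalloproteinases, by 2.22 ± 0.30 at 24 h. Saa3, an acute-phase serum amyloid, had the highest estimate of the list in each comparison, from 4.11 ± 0.64 to 5.09 ± 0.64. The genes that fell at 6 h in DMSO skin were Ccnd1, the cell cycle cyclin D1, by 1.04 ± 0.22 and Birc5, the mitotic regulator survivin, with -1.05 ± 0.22. Birc5 was higher in AG825 skin at 24 h, by 0.86 ± 0.24 (adjusted p = 0.0426). Junb, Pim1, Pim2, Pim3, Bcl2l1, Cebpb, Bcl6, Vegfa, Reg3g, Il1rn and Tnfaip3, also listed as targets, passed in no UV comparison. This list was chosen with earlier results of these data known, so its counts are a description. Many of these genes also respond to other factors, and STAT3 activity was not measured.

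**Figure D5:**
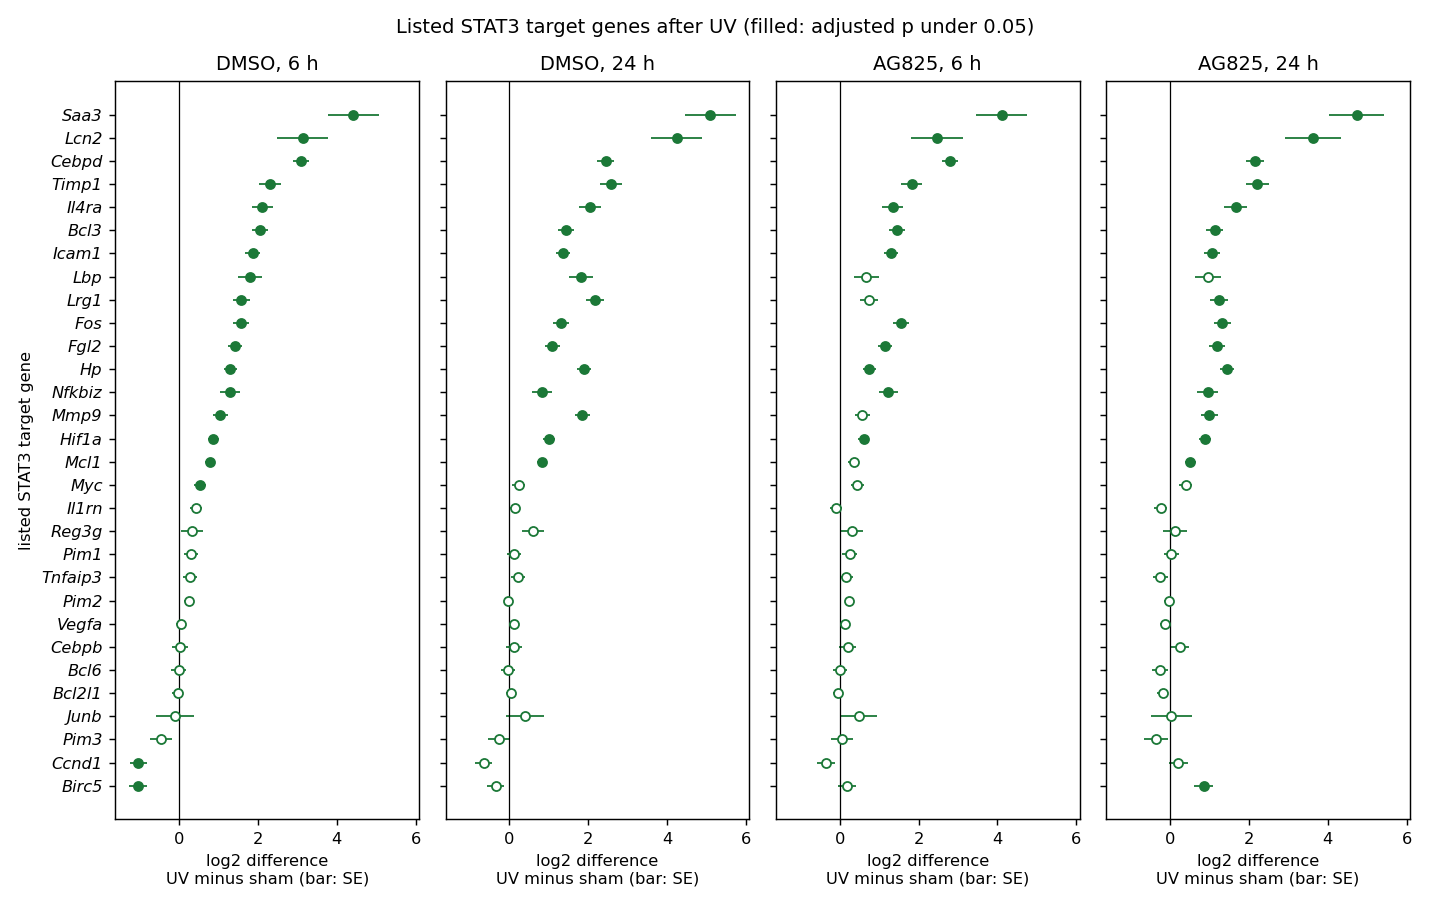
Log2 difference of irradiated minus sham skin, with SE bars, for 30 listed STAT3 target genes in 4 comparisons, ordered by the difference in DMSO skin at 6 h; filled points have an adjusted p under 0.05. Filled points to the right of 0 number 17, 16, 12 and 16.

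Cell type markers moved in the same comparisons, and in whole skin more cells of a type and more RNA per cell cannot be told apart. All 10 keratinocyte markers were called present on every array, and 3 fell in DMSO skin at each time, none in AG825 skin at 6 h and 1 at 24 h. Of 10 measured macrophage and general leukocyte markers, all 10 rose in DMSO skin at either time, and 4 (6 h) and 8 (24 h) in AG825 skin. The share of all probe sets called higher was 7.77% and 4.89% in DMSO skin and 1.48% and 3.35% in AG825 skin, which is the background for each marker count of a rise. The mean log2 level of these 10 ran from 8.37 to 9.14 on DMSO sham arrays, from 10.59 to 11.09 at 6 h and from 10.16 to 11.21 at 24 h. On AG825 arrays it ran from 8.85 to 9.78 after sham, from 9.27 to 10.73 at 6 h and from 10.55 to 10.77 at 24 h. Neutrophil markers rose in 7 and 6 of 10 in DMSO skin and 3 and 3 in AG825 skin, and endothelial markers in 5 and 5 of 7 in DMSO skin and 0 and 1 in AG825 skin. Hair shaft markers fell in 8 of 8 at 6 h in DMSO skin, where their mean level ran from 6.73 to 9.45 against 11.02 to 11.87 after sham, and in none at 6 h in AG825 skin. At 24 h 2 of the 8 fell in DMSO skin and 1 in AG825 skin, and the share of all probe sets called lower was 10.7% and 3.83% in DMSO skin and 1.26% and 1.49% in AG825 skin. Of 6 measured markers each, 1 fibroblast, 3 mast cell and 3 skeletal muscle markers rose in DMSO skin at 6 h. In the other UV comparisons 1 mast cell marker rose, in DMSO skin at 24 h, and no fibroblast or skeletal muscle marker did. Of 5 measured T cell markers, 1 rose in DMSO skin at 6 h, 1 fell there at 24 h and 1 fell in AG825 skin at 6 h. None of 4 measured adipocyte markers passed in a UV comparison. Mmp9 stands among both the neutrophil markers and the STAT3 targets. The part of these shifts in the values of the Il6 family was not tested. Percent of probe sets called present ran from 62.3 to 71.4 over the arrays, and from 62.3 to 69.2 in DMSO skin at 6 h, and arrays of 1 group correlated at r of 0.957 to 0.992 across probe sets.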

How the data were processed

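RNA of whole dorsal skin was hybridised to 23 arrays in 6 groups. Main values came from the deposited log2 table, which the submitters' processing notes credit to RMA without a version. The deposited dChip table (23 arrays) and GCOS table (22 arrays, without DMSO 6 h replicate G) hold signal on a linear scale with detection calls, per the file headers. The dChip table has 22690 probe sets, and only the 19645 of the log2 table were analysed. Probe sets were named through the platform table, updated by gene ID: 17825 named 1 gene, 445 several and 1375 none.

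With limma 3.58.1 under R 4.3.3 (lmFit, eBayes, 20.75 degrees of freedom), a mean per group was estimated for each of 19645 probe sets, with 11 two-sided comparisons and Benjamini-Hochberg adjustment at 0.05. Named genes were all 8 members, up to 3 genes per pathway list and direction by smallest adjusted p, a few fixed others (among them Socs1, Il11, Lifr and Jak2) and the 3 most similar profiles; others named among the lists were picked after their values were seen. The members and lists were chosen with earlier results of these data known. Presence calls are those of dChip unless named. Alternatives were the dChip signal as log2(signal + 16), the GCOS signal scaled to a common trimmed mean (pseudocount 16 or 1), a filter on presence on 3 arrays, the compared groups alone, a replicate block, a trended robust prior, percent present as a covariate, and leaving out arrays. In AG825 skin at 6 h against sham, the 3 arrays sharing a replicate letter deviated together (r of 0.17, 0.65 and 0.62), a pairing taken from the data, and the block changed no call of a member there. Simulated data for DMSO skin at 6 h had 200 of 19645 probe sets changed and noise independent between probe sets. There 88% of shifts of 1 and 97% of shifts of 2 (log2) were recovered, with 9 false calls. In the data 3623 probe sets passed in that comparison, so these rates may not carry over. Precision is limited by how many arrays each group holds.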

Additional observations from a re-analysis of the deposited data

Results flagged for a closer look

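Socs3 on AG825 sham replicate D, with a log2 value of 8.56, lay apart from the other AG825 sham arrays, which had 8.95 to 9.03. Of 35 groups of 4 arrays tested, this was the single array set apart, and chance alone would set apart about 1 group in 20. All 4 sham values of Socs3 in AG825 skin were below the detection call, and without this array the UV differences of Socs3 kept their direction.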

How the results depend on the processing

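No UV difference of a gene changed sign while passing the threshold in any setting run. Il6 passed in every setting of its 4 UV comparisons, with 2.72 to 4.07. The count of members passing stayed within 1.5 times of the main count except in 4 cases. With the next probe set of each gene that has one, the counts were 3 in DMSO skin at 6 h, 3 in DMSO skin at 24 h and 2 in AG825 skin at 6 h. Il6 and Socs3, with 1 named probe set each, kept theirs in these counts. Of the next probe sets only that of Osmr passed, in DMSO skin at both times, and none passed in AG825 skin. Why probe sets of 1 gene differ was not tested. With the replicate block the count in AG825 skin at 24 h was 5 against 3. Il6st (0.80, limma adjusted p = 0.00194) and Stat3 (0.56, adjusted p = 0.0296) were added. In DMSO skin at 24 h Lif passed with the block (0.52, limma adjusted p = 0.0242). The labels do not say what the letters mark, so whether arrays of 1 letter are paired is not known. Deviations of arrays sharing a letter correlated at r of -0.12 to 0.27 in DMSO skin at 24 h against sham, where 1 of 3 arrays was most like its own letter. In AG825 skin at 24 h against sham the r was -0.04 and 0.26. Leaving out 1 array gave counts of 5 in DMSO skin at 6 h, 4 to 5 at 24 h, 3 to 4 in AG825 skin at 6 h and 2 to 4 at 24 h. With the dChip signal all 7 genes passed in DMSO skin at 6 h. The GCOS signal put the median of all probe sets at -0.09 in DMSO skin at 6 h, against 0.01. Counts over all probe sets moved more. In DMSO skin at 6 h 3623 passed, with 1868 without the 3 arrays of lowest percent present, 2065 with percent present as a covariate, 2411 with the block and 2242 with GCOS (pseudocount 1). In DMSO skin at 24 h 1714 passed, with 997 by GCOS (pseudocount 1), 2030 without the 3 arrays of lowest percent present and 2422 with the block. In AG825 skin at 6 h 537 passed, with 241 from the compared groups alone, 281 with the covariate, 306 by GCOS (pseudocount 1) and 616 with the block. In AG825 skin at 24 h 952 passed, with 625 by dChip, 428 and 364 by GCOS (pseudocount 16 and 1) and 1419 with the block. Stat3 in DMSO skin at 24 h missed the threshold with GCOS (0.73, adjusted p = 0.0525), and Il6st there with dChip (0.57, adjusted p = 0.0605) and GCOS (0.69, adjusted p = 0.0713). Signal over background limits Il6ra, Lif and sham Socs3.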
